A study of Mus musculus with 28 samples.

Results

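The mean response of regulatory T (Treg) cells in vitro to 3 inhibitors of the mitochondrial respiratory chain was measured as the mean of the 3 inhibitor groups minus Untreated, in 1 fit of the 4 groups. Genes moving alike were those called in that mean and, in the same direction, with each inhibitor on its own: 223 of the 11689 genes tested, 75 higher and 148 lower. The data were 12 of the 28 RNA libraries of the series, all of CD4+ YFP-Foxp3+ CD25+ cells of 3-week-old C57BL/6NJ mice with the RISP WT genotype. RISP is the Rieske iron-sulfur subunit of complex III, encoded by Uqcrfs1. The groups were Untreated, 1 µM Piericidin, 500 µM 3-NPA (3-nitropropionic acid) and 1 µM AntimycinA, with 3 libraries each. The length of exposure, the culture conditions and the origin of the replicates are not given in the sources used here, so a p-value says how a difference compares with the scatter of these libraries, whose source may be technical. The doses differ, and each inhibitor was used at 1 dose. Beside these, knockout libraries from mice were used for 1 comparison near the end: RISP_WT and RISP_KO of 3-week-old mice and RISP_Chimera_WT and RISP_Chimera_KO of chimeras aged 8 to 12 weeks, 4 libraries each, all C57BL/6NJ and of the same sorted cell type.

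Piericidin blocks the ubiquinone site of complex I (NADH dehydrogenase), 3-NPA inactivates complex II (succinate dehydrogenase), and antimycin A blocks the inner quinone site of complex III (the cytochrome bc1 complex). Complexes I and II pass electrons to ubiquinone and complex III takes them from it, so the 3 agents act on different enzymes around 1 electron carrier. Proliferating T cells use the chain to regenerate NAD+ and to make aspartate and pyrimidines as well as ATP.

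The 12 libraries held 2.71 to 3.45 M counts each, and 11689 genes passed the filter on low counts. The labelled cell type was visible in the markers: Foxp3 read 529 to 819.9 CPM (the gene's counts relative to the library's total, scaled by TMM factors) and the 14 general T cell markers summed to 4684 to 5784 CPM over the 12 libraries. The 6 natural killer cell markers summed to at most 0.714 CPM and the 7 granulocyte markers to at most 0.915 CPM. Other lists were higher. B cell markers summed to 276 to 550 CPM, nearly all of it Ighm, and epithelial and stromal markers to 55.2 to 116 CPM. CD8 T cell, monocyte and macrophage, and dendritic cell markers reached at most 21.1, 24.5 and 23.2 CPM. Plasma cell and erythroid and platelet markers reached at most 9.03 and 6.82 CPM. Uqcrfs1 did not pass the test in the mean response, at a log2 fold change of -0.10 ± 0.18 (SE, adjusted p = 0.778). With only Untreated replicate 2 left out, the sign of that value turned, to 0.25.

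Taken as the mean of the 3 inhibitors against Untreated, cell division, DNA replication, nucleotide synthesis and ribosome production genes were lower, and a smaller, more mixed set of genes was higher. Of the 11689 genes tested, 1806 were called (15.5%) by edgeR's quasi-likelihood test with a Benjamini-Hochberg threshold of 0.05, 721 higher (6.17%) and 1085 lower (9.28%). Against the same Untreated libraries, Piericidin alone called 1584 genes (13.6%; 5.62% higher and 7.93% lower), 3-NPA 377 (3.23%; 1.35% and 1.87%) and AntimycinA 1754 (15.0%; 6.50% and 8.50%). The 3 contrasts share their control, so their common genes are a description and not a test. Genes called in the mean response and called in the same direction with each of the 3 inhibitors numbered 223 (1.91% of those tested), 75 higher (0.642%) and 148 lower (1.27%). Single libraries moved these counts. Without Untreated replicate 1 or Untreated replicate 3 the mean response called 1060 and 1074 genes. The 223 fell to 85 without Untreated replicate 1, 107 without Untreated replicate 3, 105 without 3-NPA replicate 2 and 79 without 3-NPA replicate 3. The 3-NPA count itself was 141 and 172 without those Untreated libraries, 180 without 3-NPA replicate 2 and 130 without 3-NPA replicate 3. The Piericidin count was 1025 without Untreated replicate 1 and 1009 without Piericidin replicate 3. In all 12 fits that leave out 1 library, 19 of the 75 rises and 26 of the 148 falls were still called alike. Asking for a change over 1.5-fold in the test left 90 genes in the mean response, 9 with 3-NPA and 0 alike. Losses of a call for single genes are given apart from this minimum.

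**Figure D1:**
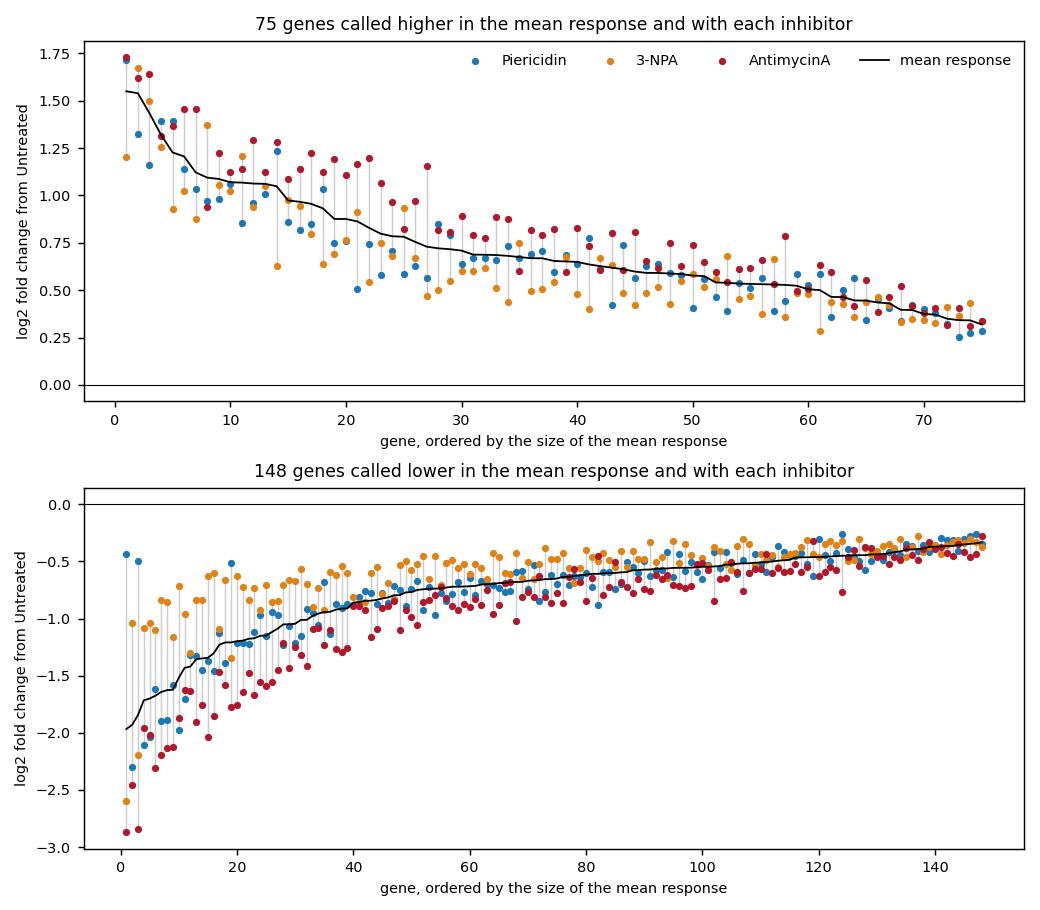
Log2 fold change from Untreated (y axis) of each gene called alike with all 3 inhibitors, ordered by the mean response (x axis). Points are the 3 inhibitors (3 libraries each, against 3 Untreated), grey lines join a gene's 3 values and the black line is their mean. Among the 148 falls, AntimycinA gave the largest change in 110 genes and 3-NPA the smallest in 106.

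The 223 genes moved alike in direction but not always in size. The 75 rises had a median log2 fold change of 0.65 in the mean response (0.32 to 1.55), with own medians of 0.63 for Piericidin, 0.55 for 3-NPA and 0.79 for AntimycinA. The 148 falls had a median of -0.65 (-1.97 to -0.33), with own medians of -0.64, -0.52 and -0.77 in the same order. 3-NPA was the smallest of the 3 in 46 of the rises and 106 of the falls, and AntimycinA the largest in 51 and 110. The 3 inhibitor groups were also tested against each other by a 2-degree-of-freedom F-test in the same fit. This test does not use the Untreated level, though the Untreated libraries enter the estimate of the spread. It called 693 of the 11689 genes (5.93%). It called 10 of the 75 rises (13.3%) and 50 of the 148 falls (33.8%), so for 65 rises and 98 falls no difference among inhibitors passed. That count of 693 was 321 without 3-NPA replicate 1 and 398 without 3-NPA replicate 3. The pairwise tests place most of these differences against 3-NPA. AntimycinA differed from 3-NPA in 3.98% of all genes, and it was lower in 42 of the falls (2.38% of all genes) and higher in 12 of the rises (1.60%). Piericidin differed from 3-NPA in 4.29% of all genes, and it was lower in 21 of the falls (2.43% of all genes) and higher in 3 of the rises (1.87%). AntimycinA and Piericidin differed in 0.736% of all genes, and AntimycinA was lower in 8 of the falls (0.299%) and higher in 3 of the rises (0.436%). At least a 2-fold estimate with every inhibitor was reached by 7 rises and 7 falls, and at least a 1.5-fold estimate by 29 and 47. The CPM of the 9 inhibitor libraries did not overlap those of the 3 Untreated libraries in 69 of the 75 rises and 144 of the 148 falls, against 8.44% of all genes, a measure from the libraries that chose the genes.

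Mitosis genes were lower as a whole. In the list of G2 and M phase genes, of 27 genes tested, 0 were called higher and 27 lower in the mean response, with a median log2 fold change of -1.37 against 0.01 over all genes. The list's medians were -1.45 with Piericidin, -0.62 with 3-NPA and -2.04 with AntimycinA, and 7 of the 27 were called with all 3 inhibitors: Mki67, Top2a, Ccna2, Cdk1, Cdc20, Kif11 and Prc1. In the 12 fits that leave out 1 library, Top2a, Ccna2 and Cdc20 were called alike in 7. Kif11 was so called in 8, Mki67 and Cdk1 in 9 and Prc1 in 12. The F-test among inhibitors called 23 of the 27 genes. Cdk1, the kinase that drives entry into mitosis (chromosome 10, 69336635 to 69352938, mm10), read 83.8, 94.0 and 70.8 CPM in the 3 Untreated libraries, 17.7, 27.5 and 13.1 CPM with Piericidin, 39.9, 32.0 and 44.9 CPM with 3-NPA and 21.4, 33.2 and 8.16 CPM with AntimycinA. Each of the 9 inhibitor libraries was below the lowest Untreated library, and the 3-NPA libraries mostly lay above the other inhibitors. Its mean response was -1.71 ± 0.20 (SE, adjusted p = 3.02e-08), made of -2.10 with Piericidin, -1.08 with 3-NPA and -1.96 with AntimycinA. Ccna2, which encodes cyclin A2, a partner of the S and M phase kinases, read 171, 146 and 144 CPM in the 3 Untreated libraries, 47.5, 33.0 and 37.2 CPM with Piericidin, 118, 81.3 and 81.9 CPM with 3-NPA and 55.4, 51.2 and 18.5 CPM with AntimycinA. Its mean response was -1.52 ± 0.15 (SE, adjusted p = 2.19e-09), and the 3 inhibitors differed (adjusted p = 5.12e-05). Prc1, which bundles spindle microtubules, had even own values, -1.32 with Piericidin, -1.30 with 3-NPA and -1.64 with AntimycinA, and no difference among them passed (adjusted p = 0.665). Mki67, the Ki-67 antigen of cycling cells, fell by 1.34 on the log2 scale and Top2a, the topoisomerase that untangles sister chromatids, by 1.30. In bulk libraries, fewer dividing cells and less RNA per dividing cell cannot be told apart.

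DNA replication genes were lower with them. Of 38 S phase and DNA replication genes tested, 0 were called higher and 34 lower, 12 of them with every inhibitor, and the median was -0.79. The largest fall of a nuclear gene called alike was that of Mcm10, which loads polymerase onto opened origins (chromosome 2, 4989714 to 5012791, mm10). Mcm10 read 64.7, 88.7 and 55.7 CPM in the 3 Untreated libraries, 15.1, 14.1 and 13.4 CPM with Piericidin, 38.9, 30.5 and 32.7 CPM with 3-NPA and 12.5, 14.8 and 10.4 CPM with AntimycinA. The 3-NPA libraries lay between the Untreated and the other inhibitor libraries with no overlap. The mean response was -1.93 ± 0.16 (SE, adjusted p = 2.59e-11), with -2.30 with Piericidin, -1.04 with 3-NPA and -2.46 with AntimycinA, and the inhibitors differed (adjusted p = 4.61e-05). Lig1, the ligase that joins Okazaki fragments, had a mean response of -1.15 ± 0.09 (SE, adjusted p = 2.29e-12), and Mcm5, a subunit of the replicative helicase, one of -0.92 ± 0.09 (SE, adjusted p = 5.72e-10). The helicase subunits Mcm3, Mcm4, Mcm6 and Mcm7 were also called with each inhibitor, at Mcm3 -0.91, Mcm4 -0.79, Mcm6 -0.57 and Mcm7 -1.05, as were the sliding clamp Pcna (-0.69), the polymerase subunits Pold1 and Pole (-0.60 and -1.17), the hemimethylated-DNA reader Uhrf1 (-1.18) and the histone chaperone subunit Chaf1a (-1.21). In the 12 fits without 1 library, Chaf1a was called alike in 6 and Pcna, Pold1 and Pole in 7. Mcm3 and Mcm6 were so called in 8, Mcm4 in 9, Mcm10 in 11 and Lig1, Mcm5, Mcm7 and Uhrf1 in 12. Others among the 10 largest falls called alike were Cdc20, the activator of the anaphase-promoting complex (-1.70 ± 0.23), and E2f8, an atypical E2F repressor (-1.68 ± 0.22). Pclaf, a PCNA-binding protein (-1.63 ± 0.16), and Knl1, a kinetochore scaffold (-1.62 ± 0.21), were also among them. E2f8 was called alike in 7 of those fits, Pclaf in 8 and Knl1 in 10.

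E2F sites, CHR elements and CCAAT boxes are known elements of cell-cycle promoters, and the windows before the start of 3 of the largest falls and, for contrast, 1 of the largest rises are shown. The sequences are the 250 bases before the RefSeq start (GRCm38.p6), 5′ to 3′ on the gene's strand, with matches on either strand in capitals. The letters searched were TTTGGCGC, TTTCCCGC, TTTGCCGC and TTTCGCGC for an E2F site, TTTGAA for the CHR element, CCAAT for the CCAAT box, CACGTG for the E-box and TGATGNAA for the ATF4 composite site, with no overlaps between motifs in these 4 windows. The windows are chr10:69352913-69353162 (minus strand) for Cdk1, chr4:118437344-118437593 (minus strand) for Cdc20, chr2:5012792-5013041 (minus strand) for Mcm10 and chr1:54557685-54557934 (minus strand) for Pgap1, which encodes a lipid-remodelling enzyme of GPI anchors.
Cdk1: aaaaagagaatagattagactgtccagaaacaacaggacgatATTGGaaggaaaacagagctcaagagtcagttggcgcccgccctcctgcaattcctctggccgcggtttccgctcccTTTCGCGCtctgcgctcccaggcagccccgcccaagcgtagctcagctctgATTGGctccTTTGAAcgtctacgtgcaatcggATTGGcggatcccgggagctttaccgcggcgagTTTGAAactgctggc
Cdc20: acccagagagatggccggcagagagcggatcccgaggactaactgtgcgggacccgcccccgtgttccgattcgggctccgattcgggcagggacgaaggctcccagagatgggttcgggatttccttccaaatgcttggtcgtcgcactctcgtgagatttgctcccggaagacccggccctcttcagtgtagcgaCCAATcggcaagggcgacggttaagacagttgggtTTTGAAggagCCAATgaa
Mcm10: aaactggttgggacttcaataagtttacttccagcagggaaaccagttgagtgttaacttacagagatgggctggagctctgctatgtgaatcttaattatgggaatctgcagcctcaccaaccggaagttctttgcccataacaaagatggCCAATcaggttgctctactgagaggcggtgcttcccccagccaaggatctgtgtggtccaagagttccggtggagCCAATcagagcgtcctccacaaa
Pgap1: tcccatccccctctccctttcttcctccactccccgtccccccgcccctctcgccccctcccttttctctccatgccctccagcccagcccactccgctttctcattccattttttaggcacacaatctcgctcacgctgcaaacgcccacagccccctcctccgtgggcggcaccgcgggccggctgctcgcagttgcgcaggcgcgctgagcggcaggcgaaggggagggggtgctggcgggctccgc
The Cdk1 window holds 1 E2F site, 2 CHR elements and 3 CCAAT boxes (ATTGG on the strand shown), the Cdc20 window 1 CHR element and 2 CCAAT boxes and the Mcm10 window 2 CCAAT boxes, while the Pgap1 window holds none of these letters. Other windows of the 10 largest changes each way did not all divide so: that of the fall Knl1 holds none, 1 of the 3 windows of the rise Dzip1 holds a CHR element, a CCAAT box and an E-box, and that of the rise Ctsl an E-box and an ATF4 site. RefSeq windows were matched by symbol for 120 of the 148 falls and 53 of the 75 rises. An E2F site of these letters was in 21 of the 120 falls (17.5%) and 1 of the 53 rises (1.89%), against 4.24% of the 8705 tested genes with a window and 1.86% of all 32851 windows. A CHR element was in 22.5% of the falls and 18.9% of the rises, against 12.6% of tested genes and 16.0% of all windows. A CCAAT box was in 54.2% of the falls and 39.6% of the rises, against 40.7% of tested genes and 33.8% of all windows. The E-box (12.5% of falls, 9.43% of rises, 10.2% of tested genes, 6.02% of all windows) and the ATF4 site (2.50%, 3.77%, 2.29% and 3.45%) complete the search. A gene counts where any of its windows holds the letters, while all windows are counted singly, so those 2 kinds of share are not alike. These shares describe letters in a window and were not tested.

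**Figure D2:**
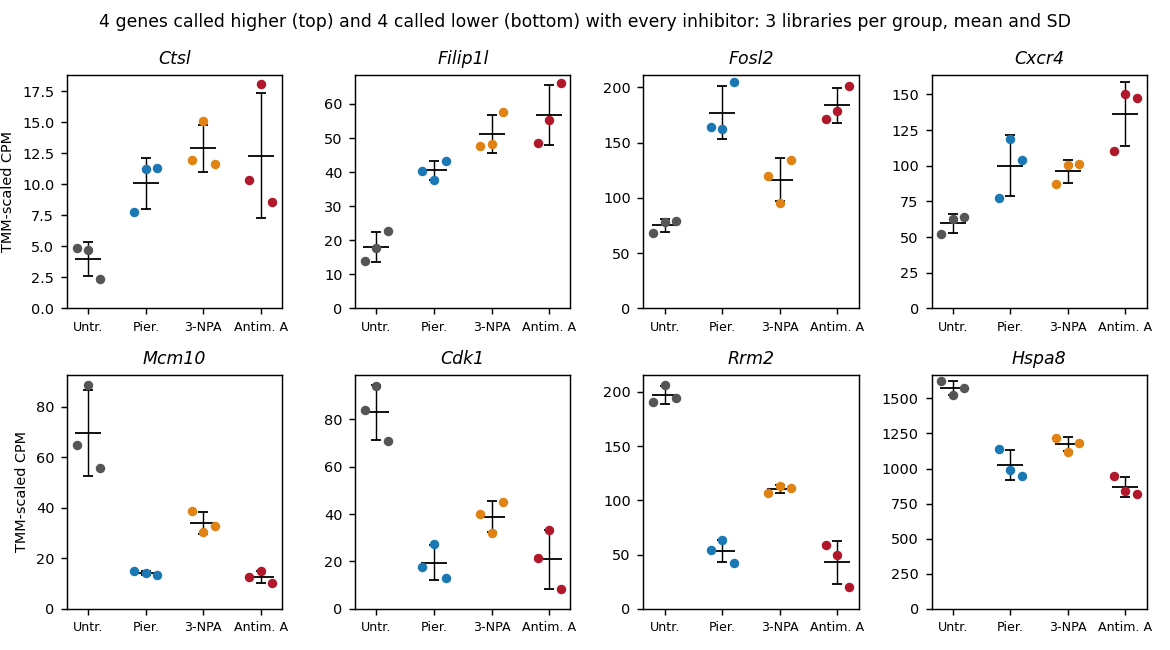
TMM-scaled CPM (y axis, from 0) of 8 genes called alike with every inhibitor, by group (x axis). Points are the 3 libraries of a group, and the bar and whiskers are their mean and SD. In each panel the 9 inhibitor libraries lie on 1 side of the 3 Untreated libraries, and for Mcm10, Rrm2 and Fosl2 the 3-NPA libraries lie closest to Untreated.

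Genes that supply nucleotides to replication were lower too. Of 21 pyrimidine and purine synthesis genes, 0 were called higher and 14 lower, with a median of -0.42. Adsl, Nme1, Rrm1 and Rrm2 were called with all 3 inhibitors. In the 12 fits without 1 library, Adsl and Rrm1 were called alike in 9, Nme1 in 10 and Rrm2 in 12. Rrm2, the regulated small subunit of ribonucleotide reductase (chromosome 12, 24708241 to 24714146, mm10), read 191, 206 and 195 CPM in the 3 Untreated libraries, 54.1, 63.4 and 42.4 CPM with Piericidin, 106, 113 and 112 CPM with 3-NPA and 58.9, 49.2 and 20.4 CPM with AntimycinA. The 3 groups of inhibitor libraries were all below Untreated, with 3-NPA above the other inhibitors. Its mean response was -1.64 ± 0.13 (SE, adjusted p = 1.01e-11), and the inhibitors differed (adjusted p = 5.09e-06). Rrm1, the large subunit of the same enzyme, had a mean response of -1.01 ± 0.10 (SE, adjusted p = 3.70e-09), and Paics, which catalyses steps of purine synthesis, one of -0.57 ± 0.08 (SE, adjusted p = 3.27e-06). In the list of serine, one-carbon and proline synthesis genes, 10 of 17 were lower and 0 higher. They included Tyms (-0.99 ± 0.15), which makes thymidylate, and Phgdh, the first enzyme of serine synthesis (-0.57 ± 0.09), and of this pair only Phgdh was called with each inhibitor.

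Genes of ribosome production and protein folding formed the next group. In the list of ribosome biogenesis genes and Myc, of 34 genes tested, 0 were called higher and 25 lower in the mean response, with a median of -0.38, and 5 were called with every inhibitor: Ncl, Npm1, Nop58, Gar1 and Nhp2. Ncl, nucleolin, a main protein of the nucleolus, read 2511, 2366 and 2422 CPM in the 3 Untreated libraries, 1819, 1522 and 1503 CPM with Piericidin, 1941, 1667 and 1827 CPM with 3-NPA and 1511, 1376 and 1324 CPM with AntimycinA. The groups did not overlap Untreated, the response of -0.60 ± 0.06 (SE, adjusted p = 2.58e-09) was under 2-fold, and it was called alike in 12 of the 12 fits without 1 library. Npm1, nucleophosmin, had a mean response of -0.54 ± 0.06 (SE, adjusted p = 1.80e-08). Nop58, of the box C/D ribonucleoprotein, had one of -0.58 ± 0.07 (SE, adjusted p = 9.26e-08). Npm1 was also called alike in 12 of those fits, Nop58 and Gar1 in 11 and Nhp2 in 8. Structural proteins of the cytosolic ribosome did not go with them: of 47 tested, 2 were called higher (Rps15a and Rpl9, 0.23 and 0.21, calls lost under several settings) and 0 lower. Of 22 cytosolic aminoacyl-tRNA synthetases, 12 were lower and 0 higher (median -0.29), Gars with each inhibitor (-0.35). Gars was called alike in only 4 of the 12 fits without 1 library.

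Chaperones that were called were lower, in the cytosol, the endoplasmic reticulum and mitochondria. Of 13 cytosolic heat shock proteins, 7 were called lower and 0 higher (median -0.37), and Hspa8, Hsp90aa1 and Hsp90ab1 were called with every inhibitor. Hspa8, the constitutive HSP70 of the cytosol, read 1626, 1522 and 1577 CPM in the 3 Untreated libraries, 1143, 988 and 945 CPM with Piericidin, 1218, 1118 and 1181 CPM with 3-NPA and 946, 841 and 817 CPM with AntimycinA. Its mean response was -0.64 ± 0.06 (SE, adjusted p = 1.13e-09), largest with AntimycinA (-0.62 with Piericidin, -0.43 with 3-NPA and -0.86 with AntimycinA). Of 21 endoplasmic reticulum chaperones and unfolded protein response genes, 10 were lower and 0 higher (median -0.21), among them Sdf2l1 (-0.86 ± 0.17), Hyou1 (-0.37 ± 0.08) and, with each inhibitor, the disulfide isomerase Pdia6 (-0.42 ± 0.08). Of 16 mitochondrial chaperones and proteases, 6 were lower and 0 higher, with Hspd1, the HSP60 chaperonin, at -0.68 ± 0.07 (SE, adjusted p = 3.70e-09) and Phb2, a prohibitin of the inner membrane, at -0.58 ± 0.08 (SE, adjusted p = 1.33e-06). Phb2 was the member called with every inhibitor. In the 12 fits without 1 library, Pdia6 was called alike in 6, Hsp90aa1 in 8, Phb2 in 10 and Hspa8 and Hsp90ab1 in 12. Outside the lists, and chosen after their values were seen, Tfrc, the transferrin receptor (-0.65 ± 0.07), Odc1, the first enzyme of polyamine synthesis (-0.60 ± 0.07), and the tubulins Tubb5 and Tuba4a (-0.68 and -0.84) were also called lower with each. Tubulin genes share sequence, so reads can be split among them. In all, 46 of the 148 falls and 9 of the 75 rises belong to 1 of the 37 lists of gene function.

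Of the 75 rises called alike, 66 belong to none of the lists of gene function. The 10 with the largest mean response, with predicted genes passed over (Gm38244, at 1.55, was the largest of all), were Ctsl 1.54, Filip1l 1.43, Mapk1ip1 1.32, Carns1 1.23, Scml4 1.21, Itgb3 1.12, Pgap1 1.09, Dzip1 1.09, Tnfrsf26 1.06 and Mib2 1.06. No difference among the inhibitors passed for any of the 10. In the 12 fits that leave out 1 library, Mapk1ip1 was called alike in only 3 and Pgap1 in 4. Tnfrsf26 was called alike in 8, Dzip1 in 9, Mib2 in 11 and Carns1, Scml4 and Itgb3 in 12. Ctsl, the lysosomal protease cathepsin L (chromosome 13, 64363214 to 64370306, mm10), was the largest of these 10 but had few reads: it read 4.85, 4.68 and 2.41 CPM in the 3 Untreated libraries, 7.73, 11.2 and 11.3 CPM with Piericidin, 11.9, 15.1 and 11.7 CPM with 3-NPA and 10.4, 18.1 and 8.53 CPM with AntimycinA. Its mean response was 1.54 ± 0.38 (SE, adjusted p = 0.00370), and it was called alike in only 4 of the 12 fits that leave out 1 library. Filip1l, named for its likeness to a filamin-binding protein, read 13.9, 17.9 and 22.7 CPM in the 3 Untreated libraries, 40.5, 37.7 and 43.3 CPM with Piericidin, 47.7, 48.2 and 57.7 CPM with 3-NPA and 48.6, 55.3 and 66.0 CPM with AntimycinA. All 9 inhibitor libraries were above all Untreated libraries, the response was 1.43 ± 0.18 (SE, adjusted p = 1.97e-07), and it was called alike in 12 of the 12 such fits. Carns1 encodes carnosine synthase and had a response of 1.23 ± 0.15 (SE, adjusted p = 1.72e-07). Itgb3 encodes the integrin beta-3 chain and had a response of 1.12 ± 0.15 (SE, adjusted p = 6.02e-07), and Tnfrsf26, a receptor of the TNF receptor superfamily, one of 1.06 ± 0.19 (SE, adjusted p = 6.85e-05). Of 24 lysosome and autophagy genes, 3 were called higher and 1 lower, a share close to that of all genes. Besides Ctsl, Ctsb (cathepsin B) was called alike at 0.32 ± 0.08 (SE, adjusted p = 0.00484), a call lost in the mean response without Untreated replicate 2 (adjusted p = 0.0672) or Untreated replicate 3 (adjusted p = 0.0577). Ctsb was called alike in only 2 of the 12 fits that leave out 1 library.

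Among genes of T cell signalling, those of the T cell receptor response and immediate early genes moved both ways: of 25 tested, 9 were called higher and 4 lower, and Fosl2, Egr1 and Ier5 were higher with every inhibitor. Fosl2, an AP-1 subunit, read 68.6, 78.4 and 79.1 CPM in the 3 Untreated libraries, 164, 163 and 205 CPM with Piericidin, 119, 95.6 and 134 CPM with 3-NPA and 171, 178 and 201 CPM with AntimycinA. Its mean response was 1.05 ± 0.11 (SE, adjusted p = 5.86e-09), with 1.23 with Piericidin, 0.63 with 3-NPA and 1.28 with AntimycinA, and the inhibitors differed (adjusted p = 7.90e-04). Egr1, an early zinc finger factor, had a response of 0.72 ± 0.12 (SE, adjusted p = 2.09e-05) and Ier5 one of 0.45 ± 0.09 (SE, adjusted p = 4.82e-04). Egr1 and Ier5 were called alike in 7 and 6 of the 12 fits without 1 library, and Fosl2 in 11. Cxcr4, the receptor of the chemokine CXCL12, read 52.1, 62.9 and 64.0 CPM in the 3 Untreated libraries, 77.3, 119 and 104 CPM with Piericidin, 86.9, 100.4 and 101 CPM with 3-NPA and 110.4, 151 and 148 CPM with AntimycinA. Its response was 0.88 ± 0.13 (SE, adjusted p = 3.65e-06), and in its list of 18 homing and chemokine receptors 3 were higher and 2 lower, Klf2 at 0.38 ± 0.08 among them. Stat4, which carries interleukin-12 signals, was higher with each inhibitor (0.57 ± 0.12 (SE, adjusted p = 7.72e-04)), and alike in 5 of the 12 fits without 1 library. Kdm5b, a demethylase of histone H3 lysine 4, was higher with each (0.69 ± 0.11 (SE, adjusted p = 1.33e-05)) and Dnmt1, the maintenance DNA methyltransferase, lower with each (-0.70 ± 0.08 (SE, adjusted p = 1.04e-08)), the 2 alike members of a list of 20 demethylase and 2-hydroxyglutarate genes. Kdm7a, a histone demethylase outside that list, was also called higher with each, and alike in 8 of the 12 fits without 1 library. Gbp2 and Iigp1, interferon-induced GTPases, were lower with each inhibitor (-0.66 and -0.94) and were the only called members of a list of 19 interferon-stimulated genes. They were called alike in 3 and 7 of the 12 fits without 1 library. Other interferon-induced genes outside that list, seen afterwards, were also called lower with each inhibitor: Gbp2b (11 of the 12 fits), Irf1 (9), Irgm1 (9) and Ifi47 (8). Named after their values were seen, Itm2a, a membrane protein of activated T cells, read 61.1, 65.9 and 83.6 CPM in the 3 Untreated libraries, 119, 113 and 138 CPM with Piericidin, 127, 149 and 130.01 CPM with 3-NPA and 166, 137 and 159 CPM with AntimycinA, and Il7r, the interleukin-7 receptor, read 90.6, 129 and 96.6 CPM in the 3 Untreated libraries, 171, 174 and 187 CPM with Piericidin, 129, 192 and 143 CPM with 3-NPA and 208, 269 and 251 CPM with AntimycinA. For Itm2a all inhibitor libraries were above Untreated, and for Il7r 1 3-NPA library was level with the highest Untreated one. The major histocompatibility genes H2-Q5, H2-Q6, H2-Q7 and H2-T22 were also called higher with each inhibitor (H2-Q5 0.69, H2-Q6 0.40, H2-Q7 0.59 and H2-T22 0.67), but these near-identical genes can exchange reads and are uncertain.

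Genes of Treg identity moved both ways. In the Treg lineage list, of 23 genes tested, 4 were called higher and 6 lower in the mean response, with a median of -0.02 and values of -0.72 to 0.68. The called share was 43.5%, against 15.5% of all genes, and 2 were called with every inhibitor. These were Gpr83, a receptor of thymic Treg cells (-0.72 ± 0.10 (SE, adjusted p = 8.25e-07)), and Socs2, a feedback inhibitor of cytokine signalling (-0.50 ± 0.07 (SE, adjusted p = 2.97e-06)), both lower. Foxp3, the factor that defines the lineage, read 529, 571 and 549 CPM in the 3 Untreated libraries, 739, 783 and 819.9 CPM with Piericidin, 577, 616 and 609.6 CPM with 3-NPA and 544, 771 and 768 CPM with AntimycinA. Its mean response of 0.32 ± 0.08 (SE, adjusted p = 0.00273) was called, and the call was lost with the inhibitor libraries taken as 1 group (adjusted p = 0.0525). Its own values were 0.51 with Piericidin, 0.13 with 3-NPA and 0.34 with AntimycinA, and the difference among inhibitors passed (adjusted p = 0.0255). Il2ra, which encodes the CD25 of the sort, read 2974, 2828 and 2928 CPM in the 3 Untreated libraries, 2861, 2552 and 2721 CPM with Piericidin, 2872, 2439 and 2786 CPM with 3-NPA and 2421, 2259 and 2299.7 CPM with AntimycinA. Its response of -0.18 ± 0.06 (SE, adjusted p = 0.0289) was called, and the call was lost without Untreated replicate 1 (adjusted p = 0.133), Untreated replicate 3 (adjusted p = 0.111) or AntimycinA replicate 2 (adjusted p = 0.0530). It was also lost with the 9 inhibitor libraries as 1 group (adjusted p = 0.180) and with AntimycinA left out, where the value was -0.09 (adjusted p = 0.437). Ctla4, an inhibitory receptor, had a response of -0.07 ± 0.06 (SE, adjusted p = 0.515) and Il10, a suppressive cytokine, one of -0.30 ± 0.19 (SE, adjusted p = 0.313), and neither passed. Of 23 suppressive effectors, 7 were higher and 1 lower in the mean response (34.8%, against 15.5% of all genes) and 0 with every inhibitor. They included Pdcd1, which encodes PD-1 (0.68 ± 0.14), Tigit (0.50 ± 0.10) and the integrin Itgb8 (0.60 ± 0.12). Tnfrsf9, the costimulatory receptor 4-1BB, showed how the mean can join unequal values: it read 747, 826 and 887 CPM in the 3 Untreated libraries, 1584, 1857 and 1590.02 CPM with Piericidin, 930.2, 1048 and 934 CPM with 3-NPA and 1191, 1462 and 1517 CPM with AntimycinA, and its mean of 0.68 ± 0.07 (SE, adjusted p = 1.04e-08) came from 1.03 with Piericidin, 0.24 with 3-NPA and 0.76 with AntimycinA (adjusted p = 1.55e-07 among inhibitors). Ighm, listed as a B cell marker, was called lower with each inhibitor (-0.61 ± 0.08 (SE, adjusted p = 7.15e-07)). It made nearly all of the sum of 10 B cell markers, 489 to 550 CPM in Untreated, 276 to 292 with Piericidin, 318 to 465 with 3-NPA and 349 to 451 with AntimycinA, while Ms4a1 was at 0 in all 12 libraries.

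For the genes of mitochondrial DNA the mean response hid a split between the inhibitors. All 7 mitochondrial mRNAs tested were called lower in the mean (median -1.37), but the medians were -0.21 with Piericidin, -1.92 with 3-NPA and -1.95 with AntimycinA, and the F-test among inhibitors called all 7. The other 6 of the 13 did not pass the filter: 5 are listed at 0 in all 12 libraries and mt-Nd3 at 0 or 1. mt-Cytb, which encodes cytochrome b, the complex III subunit that binds antimycin A, read 2962, 2500.4 and 2573 CPM in the 3 Untreated libraries, 2117, 1687 and 2133 CPM with Piericidin, 509, 457 and 365 CPM with 3-NPA and 260.1, 397 and 442 CPM with AntimycinA. The Piericidin libraries lay just under the Untreated ones and the 3-NPA and AntimycinA libraries far below, with no overlap. The own values were -0.44 ± 0.11 with Piericidin, -2.59 ± 0.12 with 3-NPA and -2.87 ± 0.12 with AntimycinA (adjusted p = 9.72e-20 among inhibitors). mt-Nd4, a complex I subunit, had own values of -0.50 ± 0.14 with Piericidin, -2.19 ± 0.15 with 3-NPA and -2.84 ± 0.16 with AntimycinA, and with mt-Nd2 (-0.51 with Piericidin, -1.35 with 3-NPA and -1.77 with AntimycinA) these 3 mRNAs were called lower with each inhibitor. mt-Nd5 (-0.16 with Piericidin, -1.92 with 3-NPA and -2.19 with AntimycinA) and mt-Nd6 (-0.14 with Piericidin, -2.02 with 3-NPA and -1.95 with AntimycinA) were called lower with 3-NPA and AntimycinA. The 2 genes lie next to each other on opposite strands, and the strand setting of the counts is not given in the sources used here. mt-Co1, a complex IV subunit, read 4556, 3928 and 4214 CPM in the 3 Untreated libraries, 6429, 5105 and 6606 CPM with Piericidin, 2675, 2798 and 2406 CPM with 3-NPA and 1906, 2446 and 2983 CPM with AntimycinA. It was higher with Piericidin and lower with the others (0.51 ± 0.10 with Piericidin, -0.69 ± 0.10 with 3-NPA and -0.79 ± 0.10 with AntimycinA), and its call in the mean, -0.32 ± 0.08 (SE, adjusted p = 0.00341), was lost without Untreated replicate 1 (adjusted p = 0.0578), with 3-NPA left out (adjusted p = 0.279), with AntimycinA left out (adjusted p = 0.603) or with the 9 inhibitor libraries as 1 group (adjusted p = 0.714). The ribosomal RNAs went the other way. mt-Rnr1, the small-subunit RNA, read 902, 666 and 739 CPM in the 3 Untreated libraries, 1039, 706 and 746 CPM with Piericidin, 3238, 4133 and 3243 CPM with 3-NPA and 3366, 3366 and 3818 CPM with AntimycinA. Piericidin libraries overlapped Untreated and the others were all above every Untreated library. mt-Rnr2, the large-subunit RNA, had own values of -0.33 ± 0.09 with Piericidin, 1.36 ± 0.09 with 3-NPA and 1.01 ± 0.09 with AntimycinA, so its mean of 0.68 ± 0.08 (SE, adjusted p = 2.27e-08) joined a call lower with 2 higher. With the 9 inhibitor libraries as 1 group, that call was lost (adjusted p = 0.0677). The libraries were poly(A)-selected, and mitochondrial sequence has near-identical nuclear copies, and the part of either in these levels was not tested.

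**Figure D3:**
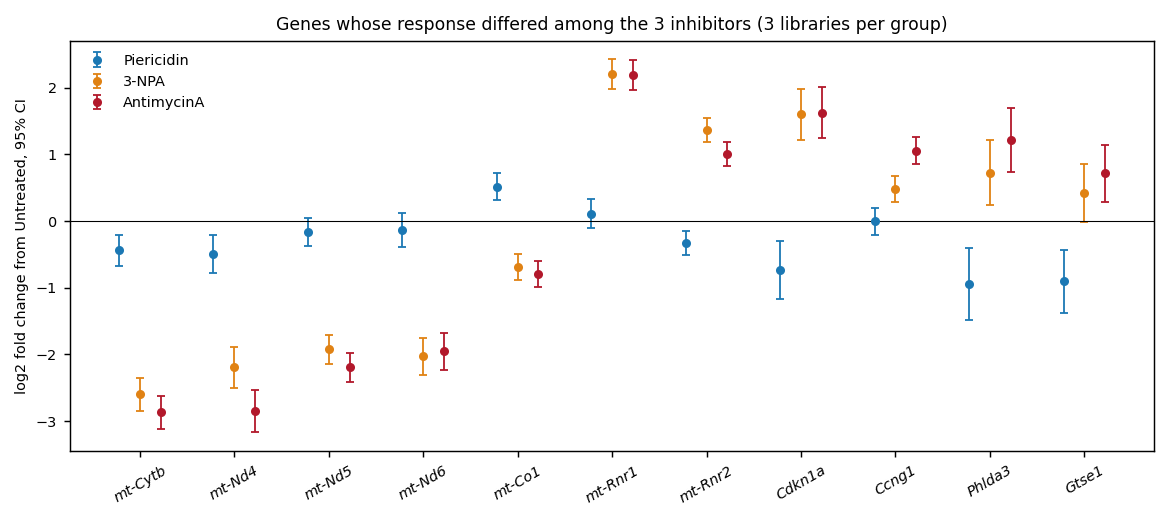
Log2 fold change from Untreated (y axis) of 11 genes whose response differed among the inhibitors, by inhibitor. Points are estimates from 3 against 3 libraries and whiskers are 95% confidence intervals. For the 7 mitochondrial genes and the 4 p53-linked genes, 3-NPA and AntimycinA lie on 1 side and Piericidin nearer 0 or on the other.

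Some targets of p53 and cell-cycle inhibitors also differed between the inhibitors. Of 18 tested, 9 were called higher and 2 lower in the mean response, and the F-test among inhibitors called 8, with list medians of -0.08 with Piericidin, 0.49 with 3-NPA and 0.73 with AntimycinA. Cdkn1a, which encodes the cyclin-dependent kinase inhibitor p21, read 20.7, 30.1 and 37.8 CPM in the 3 Untreated libraries, 19.9, 14.5 and 18.9 CPM with Piericidin, 95.5, 91.6 and 81.9 CPM with 3-NPA and 112, 81.2 and 80.5 CPM with AntimycinA. It was lower with Piericidin and higher with the others (-0.73 ± 0.22 with Piericidin, 1.60 ± 0.19 with 3-NPA and 1.63 ± 0.19 with AntimycinA, adjusted p = 3.42e-11 among inhibitors), and the mean of 0.83 ± 0.17 (SE, adjusted p = 3.53e-04) lies between. Its call in the mean was lost with 3-NPA left out (adjusted p = 0.102), AntimycinA left out (adjusted p = 0.116) or the 9 inhibitor libraries as 1 group (adjusted p = 0.0894). Ccng1, cyclin G1, had own values of -0.00 ± 0.10 with Piericidin, 0.48 ± 0.10 with 3-NPA and 1.05 ± 0.10 with AntimycinA, and its call in the mean was lost with 1 group of 9 (adjusted p = 0.0628). Phlda3, a p53-induced inhibitor of AKT, had own values of -0.94 ± 0.27 with Piericidin, 0.73 ± 0.24 with 3-NPA and 1.21 ± 0.24 with AntimycinA. Gtse1, a microtubule-associated protein that binds p53, had own values of -0.90 ± 0.23 with Piericidin, 0.42 ± 0.21 with 3-NPA and 0.71 ± 0.21 with AntimycinA. Phlda3 and Gtse1 did not pass in the mean (0.33 and 0.08). Trp53inp1, a p53-induced stress protein, was the list member called with every inhibitor (0.41 ± 0.09 with Piericidin, 0.58 ± 0.09 with 3-NPA and 0.74 ± 0.09 with AntimycinA). Over all genes, 10 were called higher with 1 inhibitor and lower with another, and 7 of these were not called in the mean response. In the BCL2 family, 4 of 13 were higher and 1 lower. Bcl2l11, which encodes the pro-apoptotic BIM, had a mean of 0.99 ± 0.13 (SE, adjusted p = 3.20e-07) from 1.19 with Piericidin, 0.43 with 3-NPA and 1.34 with AntimycinA (adjusted p = 1.03e-04 among inhibitors).

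Genes that ATF4 activates when the integrated stress response is on were called in the mean but not with every inhibitor: of 19 tested, 6 were higher and 0 lower, and 0 were called alike. Gpt2, a mitochondrial alanine transaminase, read 7.76, 6.44 and 2.06 CPM in the 3 Untreated libraries, 25.4, 22.5 and 27.5 CPM with Piericidin, 11.9, 12.1 and 4.27 CPM with 3-NPA and 12.5, 15.7 and 27.1 CPM with AntimycinA, and its mean response was 1.56 ± 0.36 (SE, adjusted p = 0.00163). Asns, asparagine synthetase, had a mean of 0.81 ± 0.19 (SE, adjusted p = 0.00185) from 1.29 with Piericidin, 0.16 with 3-NPA and 0.99 with AntimycinA (adjusted p = 0.00193 among inhibitors), and Sesn2, a leucine sensor of the mTORC1 pathway, one of 0.91 ± 0.22 (SE, adjusted p = 0.00362) from 0.44 with Piericidin, 0.73 with 3-NPA and 1.56 with AntimycinA (adjusted p = 0.00683). The Asns call was lost with Piericidin left out of the mean (adjusted p = 0.0560) and that of Sesn2 with AntimycinA left out (adjusted p = 0.111) or without Untreated replicate 1 (adjusted p = 0.05003). In the glycolysis list, 0 of 22 were higher and 7 lower, with a median of 0.05 that goes against the count. The F-test among inhibitors called 11 of the 22. Own medians were 0.11 with Piericidin, -0.04 with 3-NPA and -0.19 with AntimycinA. Piericidin called 2 higher and 5 lower, 3-NPA 0 and 3, and AntimycinA 0 and 9. Ldha, lactate dehydrogenase A, read 1159, 1020.4 and 1113 CPM in the 3 Untreated libraries, 928, 798 and 739.96 CPM with Piericidin, 935, 850.4 and 760.1 CPM with 3-NPA and 632, 614 and 589 CPM with AntimycinA. It was lower with each inhibitor (-0.42 with Piericidin, -0.37 with 3-NPA and -0.84 with AntimycinA, adjusted p = 4.67e-04 among inhibitors), as was Gapdh (-0.26 with Piericidin, -0.32 with 3-NPA and -0.77 with AntimycinA). Gapdh was called alike in 6 of the 12 fits without 1 library and Ldha in 9. The NRF2 and antioxidant list had 2 of 23 higher and 4 lower. Its largest rise was in Nqo1, a quinone reductase with few reads in these libraries (7.44, 2.93 and 1.03 CPM in the 3 Untreated libraries, 13.6, 13.0 and 16.8 CPM with Piericidin, 9.55, 5.15 and 9.39 CPM with 3-NPA and 14.3, 10.2 and 18.2 CPM with AntimycinA), at 1.62 ± 0.42 (SE, adjusted p = 0.00508). That call was lost without Untreated replicate 3 (adjusted p = 0.0726).

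The nuclear genes of the respiratory chain and ATP synthase that were called were all lower. The mean response called 0 higher and 5 lower of 36 complex I subunits, 0 higher and 3 lower of 13 of complexes II and III and 0 higher and 9 lower of 26 of complexes IV and V, and 0 in any of the 3 lists with every inhibitor. Sdhd, a membrane anchor of complex II, had a response of -0.52 ± 0.11 (SE, adjusted p = 6.81e-04) and Ndufa5, an accessory subunit of complex I, one of -0.59 ± 0.16 (SE, adjusted p = 0.00641), a call lost without Untreated replicate 1 (adjusted p = 0.0598). Mitochondrial ribosomal proteins gave 0 higher and 7 lower of 38, led by Mrpl12 (-0.54 ± 0.12), and the TCA cycle 1 higher and 5 lower of 25. In the latter, Ogdh, the oxoglutarate dehydrogenase, had a response of -0.38 ± 0.08 (SE, adjusted p = 4.73e-04), and the inhibitors differed (-0.14 with Piericidin, -0.64 with 3-NPA and -0.35 with AntimycinA, adjusted p = 0.00272). Cholesterol synthesis and uptake gave 0 higher and 7 lower of 24, with Fdps at -0.61 ± 0.14, and fatty acid synthesis and oxidation 0 higher and 6 lower of 21. Scd2, a stearoyl-CoA desaturase, split between inhibitors (-1.12 with Piericidin, 0.15 with 3-NPA and -0.63 with AntimycinA, adjusted p = 1.20e-09). Hypoxia targets gave 5 higher and 1 lower of 16, where Ndrg1 (0.70 ± 0.17) lost its call without Untreated replicate 2 (adjusted p = 0.0808) and Mxi1 (0.67 ± 0.17) without Untreated replicate 1 (adjusted p = 0.0812). The pentose phosphate pathway gave 0 higher and 1 lower of 7, transaminases and the malate shuttle 1 higher and 2 lower of 18 (Bcat1 -0.89 ± 0.13, Got2 -0.57 ± 0.11), amino acid transporters 2 higher and 1 lower of 15, Txnip and glucose-responsive genes 2 higher and 1 lower of 9, mitochondrial dynamics and biogenesis 1 higher and 0 lower of 17, and cytokines and helper lineage regulators 2 higher and 1 lower of 15. Over all genes, 15.5% were called in either direction and 9.28% lower. The called share of complex I (13.9%), the pentose phosphate pathway (14.3%) and transaminases (16.7%) was close to 15.5%. It was 5.88% for mitochondrial dynamics, 18.4% for mitochondrial ribosomal proteins, and 20% for amino acid transporters and for cytokines. It was 23.1% for complexes II and III, 24% for the TCA cycle and 28.6% for fatty acid genes. It was 29.2% for cholesterol genes, 33.3% for Txnip genes, 34.6% for complexes IV and V and 37.5% for hypoxia targets. Among lists described above, it was 10.5% for interferon-stimulated genes, 25% for demethylase genes, 26.1% for NRF2 genes and 27.8% for homing receptors. ATF4 targets had 31.6%, glycolysis 31.8%, the BCL2 family 38.5%, T cell receptor response genes 52% and p53 targets 61.1%.

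**Figure D4:**
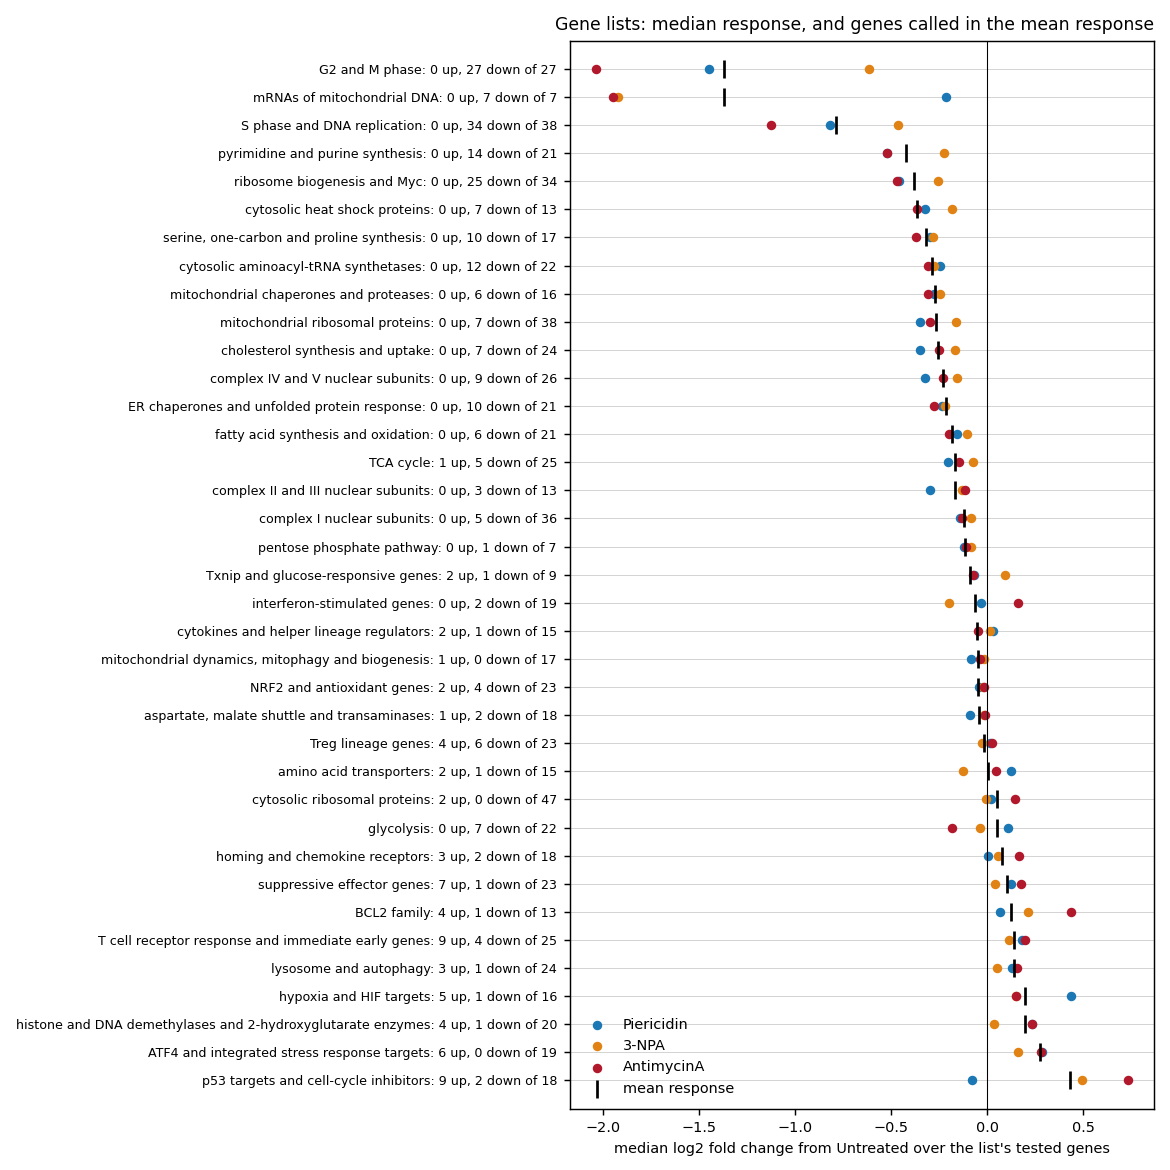
Median log2 fold change from Untreated (x axis) over the tested genes of 37 gene lists (y axis, with the counts called in the mean response). Coloured points are the 3 inhibitors and black bars the mean response. The cell-cycle lists lie far to the left with every inhibitor, and the mitochondrial mRNAs and p53 targets show Piericidin apart from the others.

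The genes called alike were then read in libraries with their own controls, those of mice whose Treg cells lack RISP. RISP_KO against RISP_WT called 1364 of 13832 genes (9.86%), 661 higher (4.78%) and 703 lower (5.08%). Of the 75 rises with the inhibitors, 4 were called higher in RISP_KO (5.33%) and 10 lower. Of the 148 falls, 8 were called lower (5.41%) and 30 higher. The 12 genes of the same direction are thus a share near the background. In the opposite direction, 30 of the 148 falls is a larger share than the 4.78% of all genes that were higher. Likewise, 10 of the 75 rises is a larger share than the 5.08% of all genes that were lower. All alike genes had a mean log2 CPM of 3 or more in vitro, while the background is every gene tested. Shares at like expression were not compared. As a share of the knockout's calls, the 4 are 0.605% of its rises and the 8 are 1.14% of its falls. The 148 falls had a median log2 fold change of 0.23 in RISP_KO against 0.0044 over all genes, and the 75 rises one of -0.04. The same-direction falls included the mitochondrial mRNAs mt-Cytb, mt-Nd2 and mt-Nd4, at mt-Cytb -0.70, mt-Nd2 -0.49 and mt-Nd4 -0.81, and the tubulin Tubb4b (-0.39). The same-direction rises included Arap2, H2-Q7 and H2-T22, at Arap2 0.74, H2-Q7 0.64 and H2-T22 0.58. In vitro, Arap2 was called alike in only 4 of the 12 fits without 1 library. Falls with the inhibitors that were higher in RISP_KO included replication and mitosis genes (Top2a 0.50, Uhrf1 0.53, Pole 0.72, Chaf1a 0.57, Mcm3 0.43, Mcm4 0.39 and Rrm1 0.31), nucleolar proteins (Ncl 0.48 and Npm1 0.43), the interferon-induced GTPases (Iigp1 2.17 and Gbp2 1.71) and Tfrc and Phgdh (1.00 and 0.73). Rises that were lower in RISP_KO included Neurl3, a ubiquitin ligase, and Mxd4, a MAX partner, at Neurl3 -1.46 and Mxd4 -0.86. By list, RISP_KO called 11 S phase genes higher and 0 lower of 38, and 1 and 0 of 27 G2 and M phase genes. In RISP_Chimera_KO, where 102 of 14399 genes were called (0.708%), 5 of the alike genes were called in the same direction, 2 higher (0.167% of all genes) and 3 lower (0.542%), and 3 in the opposite one. The 5 were Carns1, Rb1, mt-Cytb, Ptpn7 and Socs2, and they rest on single libraries: the count was 0 without RISP_Chimera_WT replicate 2 or 4, 1 without RISP_Chimera_WT replicate 1 or 3 or RISP_Chimera_KO replicate 1 or 3, 2 without RISP_Chimera_KO replicate 4 and 7 without RISP_Chimera_KO replicate 2. The mouse libraries were made with another kit in the case of RISP_WT and RISP_KO, came from cells not exposed in vitro, and were deeper (28.4 to 50.8 M counts, and 20.4 to 31.0 M in chimeras), so direction and not size is compared. The 12 shared calls ranged from 8 to 14 when single RISP_WT or RISP_KO libraries were left out, with the alike genes held fixed. The comparison was not repeated with in vitro libraries left out. The 40 calls in the opposite direction (10 and 30) numbered 24, 25 and 23 without RISP_WT replicate 1, 2 or 3, and 26 under the replicate block.

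**Figure D5:**
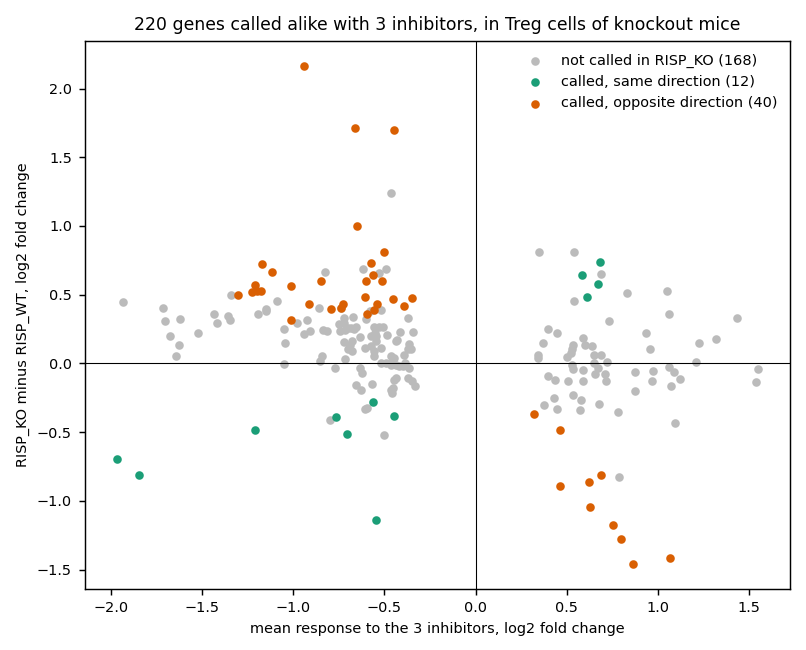
Log2 fold change in RISP_KO against RISP_WT (y axis, 4 libraries each) of the genes called alike in vitro, by their mean response to the inhibitors (x axis). Each point is a gene, and colours mark calls in RISP_KO. Of the coloured points, 12 lie in the same-direction quadrants and 40 in the opposite ones, most of the 40 falls in vitro. The 40 were 23 to 41 with single RISP_WT or RISP_KO libraries left out and the alike genes held fixed.

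Membership of the 223 rests on the weakest of 4 adjusted p-values. Just inside the threshold were Srgn (0.0491), Macf1 (0.0496) and Usp40 (0.0499), and just outside were Lipa (0.0509), Dennd5a (0.0510) and Sept6 (0.0510), given as a description. For 4 of these 6 the 3-NPA contrast was the weakest.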

How the data were processed

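RNA was measured in 12 in vitro libraries, read beside 16 knockout and control libraries. The authors deposited raw counts per Ensembl gene and library. The submitters' processing notes name bcl2fastq, TopHat, HTSeq and edgeR and the mm10 build, and their versions, the strand setting and filters are not given in the sources used here. Per the labels' protocols, the in vitro and chimera libraries were made with the NEB kit after poly(A) selection and those of RISP_WT and RISP_KO with the Takara kit. The 11 per-sample columns of another table match no sample of the labels and were not used.

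Of 43430 gene IDs, 42462 had a symbol in the reference name table. Tests used R 4.3.3 with edgeR 4.0.16 and limma 3.58.1: filterByExpr by group, TMM factors on library sizes of all counts, 1 fit of the 4 in vitro groups without covariates, glmQLFTest, and Benjamini-Hochberg adjustment over 11689 genes. Contrasts were the mean of the 3 inhibitors minus Untreated, each inhibitor minus Untreated, the pairwise differences and their 2-degree-of-freedom F-test. A gene is alike when called in the mean and in the same direction in the 3 own contrasts. Each knockout had its own fit of 8 libraries. Dispersion between in vitro libraries amounted to a coefficient of variation of 14.7%, and 0 pairs of these libraries were duplicates.

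Members, gene lists and tests were chosen with earlier results of these data known. The rule for names took 5 fixed genes (Uqcrfs1 and the Treg genes Foxp3, Il2ra, Ctla4 and Il10). It added the 10 largest rises and 10 largest falls called alike, with a mean log2 CPM of 3 or more, without overlap and with predicted genes passed over, and per described list its 3 called genes of smallest p. It also took the 8 genes with the smallest p among inhibitors and the 4 most divergent genes. Other names were chosen after their values were seen. A few genes are counted in their lists but not reported by name here. Alternatives were DESeq2 1.42.0, RLE factors, other filters, a 1.5-fold minimum, 1 group of 9 inhibitor libraries, means of 2 inhibitors, fits of 2 groups, the replicate number as a block, and leaving out each library. On simulated counts over 11689 genes, changes shared by all inhibitors were recovered in the mean contrast at 50.7% (1.5-fold), 85.1% (2-fold) and 95.5% (4-fold), and by the alike rule at 14.9%, 68.7% and 83.3%. Of genes changed 4-fold with AntimycinA only, 52.0% were called in the mean and 0 alike. The shared changes were placed in 67, 67 and 66 genes and the AntimycinA change in 100. The data called 1806 genes, so recovery there can differ.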

Additional observations from a re-analysis of the deposited data

Results flagged for a closer look

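Results are set apart here because the responses to the 3 inhibitors differed by the F-test among them. That test does not use the Untreated level, but comes from the fit that holds those libraries. This held for 61 of the 125 named genes, 1 comparison per gene adjusted over 11689 genes, of which 5.93% were called. The rule for names itself took 8 genes by the smallest p of this test and 4 by their divergence, and others by the size or p of the mean response, so the 2 shares are a description and not a comparison. Groups of 3 libraries are too small for a test of single outlying libraries. Among genes of mitochondrial DNA, the adjusted p was mt-Cytb 9.72e-20, mt-Nd5 5.33e-19, mt-Rnr1 4.54e-18, mt-Rnr2 1.45e-16, mt-Nd6 4.65e-15, mt-Nd4 4.99e-15 and mt-Co1 6.27e-14. Among cell-cycle, replication and nucleotide genes, the adjusted p was Mki67 1.55e-07, Rrm2 5.09e-06, Top2a 5.09e-06, Lig1 1.56e-05, Gtse1 1.81e-05, Mcm10 4.61e-05, Ccna2 5.12e-05, Pclaf 2.07e-04, Rrm1 5.87e-04, Mcm5 8.73e-04, Paics 0.0085, Tyms 0.0141, Cdk1 0.0237 and E2f8 0.0461. Among p53-linked and BCL2 family genes, the adjusted p was Cdkn1a 3.42e-11, Ccng1 1.76e-09, Phlda3 8.61e-07, Bcl2l11 1.03e-04, Bbc3 2.76e-04, Trp53inp1 0.034 and Bcl2 0.045. Among ribosome production, folding and tRNA synthetase genes, the adjusted p was Hspd1 2.24e-06, Hspa8 0.00128, Hsp90aa1 0.00394, Ncl 0.00718, Hsp90ab1 0.00903, Nop58 0.0205 and Kars 0.0275. Among metabolic genes, the adjusted p was Scd2 1.20e-09, Gapdh 2.49e-04, Ldha 4.67e-04, Asns 0.00193, Bcat1 0.00215, Ogdh 0.00272, Pkm 0.00379, Sesn2 0.00683, Scd1 0.0142, Got2 0.0247, Atp5b 0.0263, Slc3a2 0.0355, Arrdc4 0.041, Fasn 0.0416, Gpx1 0.0434, Gpt2 0.0435 and Slc7a5 0.0454. Among T cell and other genes, the adjusted p was Tnfrsf9 1.55e-07, Fosl2 7.90e-04, Dnmt1 0.00121, Itgb8 0.00933, Foxp3 0.0255, Il10 0.0323, Cxcr4 0.0396, Rragd 0.0416 and Klf2 0.0423. Scd1 had reads in few of the inhibitor libraries and no fold change is given for it. Which inhibitor stood apart is given with the own values in the report for the genes described there.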

How the results depend on the processing

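The mean response kept its count within 1.5 times (1806 genes) under RLE factors, DESeq2, the other filters, the means without Piericidin (1470) or without 3-NPA (2140) and the replicate block. It fell to 90 genes with a 1.5-fold minimum in the test (9 higher and 81 lower), to 1076 with the inhibitor libraries as 1 group of 9, and to 1183 with AntimycinA left out. Leaving out single libraries gave 1060 to 1853. Genes called alike (223) numbered 363 with DESeq2 and 0 with the 1.5-fold minimum, and 79 to 231 with single libraries left out. The difference among inhibitors (693) was 1161 with DESeq2 and 321 to 682. Piericidin (1584) gave 82 with the 1.5-fold minimum and 1009 to 1628, 3-NPA (377) gave 672 with DESeq2, 9 with the minimum and 130 to 423, and AntimycinA (1754) gave 204 with the minimum and 1261 to 1849. Shared calls with RISP_KO (12) ranged from 8 to 14 without single libraries, and those with RISP_Chimera_KO (5) were 10 with DESeq2, 8 with no filter and 0 to 7. For these shared calls only knockout and control libraries were left out, and the 223 alike genes were held fixed. The cause was not tested, except that the 1.5-fold minimum asks for more by construction.

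Of the 123 named genes called in the mean, 25 were called in every setting that gave an adjusted p and 59 lost the call only with the 1.5-fold minimum. Signs turned for Gtse1, to -0.10 with 3-NPA left out, -0.23 with AntimycinA left out and -0.0089 without Piericidin replicate 2 (from 0.08, with single libraries left out -0.0089 to 0.17), for Phlda3, to -0.10 with AntimycinA left out (from 0.33), and for Uqcrfs1, to 0.25 without Untreated replicate 2 (from -0.10, range -0.30 to 0.25). None of these 3 was called in the mean response.

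Replicate numbers recur across groups, and same-numbered libraries deviated together weakly (correlations of 0.0040 to 0.0904, 0 of 18 over 0.1). The median correlation was 0.039 for the same number and -0.025 for different numbers. What a number stands for is not given in the sources used here, and the main fit did not pair by it. With the replicate block the counts were 1921 for the mean response, 280 alike, 834 among inhibitors, 1733, 481 and 1900 for Piericidin, 3-NPA and AntimycinA, and 10 and 7 for the shared calls with RISP_KO and RISP_Chimera_KO. All 12 libraries correlated best with their own number, a hint from the data and not the design.

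The libraries held 2.71 to 3.45 M counts each, with 3 libraries per group. On simulated counts the alike rule recovered 14.9% of shared 1.5-fold changes. Fewer genes were changed there than were called in the data, so that share need not hold for the data. Of the genes called alike, 29 of the 75 rises and 47 of the 148 falls had at least a 1.5-fold estimate with every inhibitor. Genes with smaller estimates were thus called too.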
